A study of Mus musculus with 4 samples.

Results

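Chromatin accessibility was examined at 36 genes of angiogenesis and of the Notch pathway in mouse myeloid cells. They were chosen by name as ligands, receptors, proteases, hypoxia regulators and nuclear factors of these 2 systems, and the rule used no measured value. A locus was the annotated gene body with 10 kb on either side, on the GRCm38 (mm10) assembly. Overlapping intervals of the 4 deposited lists were joined into 120423 regions, 88410 of which touched the locus of a protein-coding gene. The 36 loci held 319 of them, between 1 and 30 per gene with a median of 7. No region belonged to 2 of the 36 genes, and 43 regions also lay in the locus of another gene.

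The study profiled Cxcr3-/- monocytes, WT monocytes, Cxcr3-/- CMP/GMP and WT CMP/GMP with Omni-ATAC-seq. A transposase cuts and tags open chromatin in that assay. All cells were bone marrow-derived, came from C57BL/6J mice and were cultured, and CMP/GMP are common myeloid and granulocyte-monocyte progenitors. Every sample carries hepatocellular carcinoma as its disease state, and the design text describes mice given diethylnitrosamine and tetrachloromethane. It does not state whether the cultured cells came from treated mice, how many animals were pooled or whether the duplicate sequencing was merged. Each group was 1 library, so no difference below has a replicate check, no test was run, and every interval covers counting error only. Cxcr3 is a chemokine receptor.

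In the VEGF system, secreted ligands bind the tyrosine kinase receptors KDR and FLT1, with neuropilins as co-receptors, and drive endothelial growth. In the Notch pathway, a ligand on one cell triggers cleavage of the receptor on its neighbour, and the freed intracellular domain joins the DNA-binding protein RBPJ to switch on genes such as Hes1 and Hey1. Monocytes and macrophages take part in angiogenesis as sources of VEGF and matrix proteases, and Notch2 is known for its part in monocyte fate in mice.

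The lists held 78244 intervals for Cxcr3-/- monocytes, 98257 for WT monocytes, 80171 for Cxcr3-/- CMP/GMP and 69521 for WT CMP/GMP. Values below are tags, the whole-number pileup at an interval's summit, recovered from the deposited statistics. The median pileup was 21 tags in both monocyte libraries, 29 in Cxcr3-/- CMP/GMP and 21 in WT CMP/GMP, and the lowest ranged from 5 to 9 tags. Ratios are log2 ratios after dividing each library by a scaling factor. That factor is its median ratio to the geometric mean of the 4 libraries, over 44591 regions called in all 4. A ratio needs an interval in each of the 2 libraries and 30 or more tags on average between them. An end of the gene, to within 1000 bases, was called in all 4 libraries for 10 of 11 monocyte and macrophage markers and for 6 of 10 progenitor markers. At progenitor markers, 2.73% of regions were monocyte-only and 15.5% CMP/GMP-only, by the rule given below. At monocyte markers these shares were 14.9% and 5.32%, so the marker loci differed in the direction of the cell type labels. Of the 10 endothelial markers, 3 had an end called in all 4 libraries, and per library 6 had one in Cxcr3-/- monocytes, 6 in WT monocytes, 9 in Cxcr3-/- CMP/GMP and 5 in WT CMP/GMP. Of their regions, 4.0% were monocyte-only and 12% CMP/GMP-only. Of the 7 stromal markers 1 had an end called in all 4, and no end of Col1a2, Col3a1, Pdgfra, Dcn or Lum was called in any. An end was called in all 4 for 1 of 4 hepatocyte, 2 of 4 erythroid, 1 of 3 B cell and 1 of 3 T cell markers. Of all protein-coding genes, 53.1% had an end called in all 4. Per library this was 57.1% in Cxcr3-/- monocytes, 60.4% in WT monocytes, 60.7% in Cxcr3-/- CMP/GMP and 57.8% in WT CMP/GMP. Of the regions at all these genes, 9.76% were monocyte-only and 5.77% CMP/GMP-only. The part of such cells in the values below was not tested.

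RefSeq promoter windows, from 250 bases before to 50 after a start site, were matched for 26 of the 36 genes, with 30 windows in all. The others were Angpt1, Angpt2, Ccn2, Thbs1, Epas1, Plau, Pdgfb, Hey1, Hes1 and S1pr1. Below are 7 stretches before a start site, 5′ to 3′ on the gene's strand, from RefSeq on GRCm38.p6. Vegfa, Vegfc, Hif1a, Plaur and Rbpj are shown as 5 of the 8 genes whose leading region lies over a promoter window, the others being Pgf, Efnb2 and Ephb4. Ccn1 and Cxcl12 are shown because both monocyte libraries and neither CMP/GMP library had an interval there. All 7 were picked after their values were seen. The leading region is the one with the highest scaled pileup averaged over the 4 libraries, with an uncalled library counted as 0. Capitals mark matches on either strand to the RBPJ letters TGGGAA, to the hypoxia-response core ACGTG or its variant form GCGTG, to the AP-1 letters TGANTCA, to the C/EBP letters TTGCNNAA or to the GATA-factor letters AGATAA. The called Cxcl12 region starts just past the stretch shown.
Vegfa chr17:46032378-46032627 (- strand): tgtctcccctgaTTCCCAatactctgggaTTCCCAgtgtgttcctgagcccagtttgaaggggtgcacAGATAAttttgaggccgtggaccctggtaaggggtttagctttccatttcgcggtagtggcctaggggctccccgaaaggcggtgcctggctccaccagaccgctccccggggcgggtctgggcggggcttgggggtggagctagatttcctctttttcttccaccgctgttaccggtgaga
Vegfc chr8:54077282-54077531 (+ strand): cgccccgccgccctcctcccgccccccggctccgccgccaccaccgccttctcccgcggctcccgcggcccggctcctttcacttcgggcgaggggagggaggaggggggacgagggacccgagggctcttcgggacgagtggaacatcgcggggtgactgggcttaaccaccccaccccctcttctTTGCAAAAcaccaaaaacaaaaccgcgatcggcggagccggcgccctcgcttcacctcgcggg
Ccn1 chr3:145649986-145650235 (- strand): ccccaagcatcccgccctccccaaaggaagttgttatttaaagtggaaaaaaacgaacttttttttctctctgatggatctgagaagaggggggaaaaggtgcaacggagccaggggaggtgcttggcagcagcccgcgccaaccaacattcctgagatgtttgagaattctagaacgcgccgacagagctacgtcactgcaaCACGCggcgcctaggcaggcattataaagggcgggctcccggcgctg
Hif1a chr12:73907617-73907866 (+ strand): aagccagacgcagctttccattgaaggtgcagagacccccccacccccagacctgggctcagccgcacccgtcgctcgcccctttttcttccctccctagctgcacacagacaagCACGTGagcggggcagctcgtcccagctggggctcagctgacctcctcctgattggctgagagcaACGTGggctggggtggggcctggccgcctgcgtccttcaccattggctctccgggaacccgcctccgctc
Plaur chr7:24462233-24462482 (+ strand): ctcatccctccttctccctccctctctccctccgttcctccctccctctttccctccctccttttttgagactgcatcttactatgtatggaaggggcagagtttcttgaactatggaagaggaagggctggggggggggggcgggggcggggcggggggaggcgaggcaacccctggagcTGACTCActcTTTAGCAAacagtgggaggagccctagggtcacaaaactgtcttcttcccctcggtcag
Rbpj chr5:53590096-53590345 (+ strand): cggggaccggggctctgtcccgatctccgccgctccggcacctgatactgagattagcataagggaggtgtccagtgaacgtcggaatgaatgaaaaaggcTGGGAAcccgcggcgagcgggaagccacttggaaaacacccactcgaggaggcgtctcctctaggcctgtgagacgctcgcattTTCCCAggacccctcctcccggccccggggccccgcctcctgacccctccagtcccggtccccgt
Cxcl12 chr6:117168285-117168534 (+ strand): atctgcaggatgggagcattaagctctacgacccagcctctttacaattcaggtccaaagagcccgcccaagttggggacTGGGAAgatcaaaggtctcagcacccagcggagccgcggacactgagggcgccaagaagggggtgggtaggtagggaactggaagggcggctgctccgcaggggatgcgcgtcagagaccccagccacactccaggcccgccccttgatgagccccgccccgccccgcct

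The RBPJ letters TGGGAA occurred 2 times in each of the Vegfa and Rbpj stretches and once before Cxcl12. They were found in 9 of the 30 windows of these genes (30%) and in 21.6% of 32851 windows of all genes. The core ACGTG was found in 4 windows (13.3%, against 16.6% of all windows), among them that of Hif1a, which holds it 3 times when the palindrome CACGTG counts on both strands. GCGTG was found in 14 windows (46.7%, against 28.2%), including those of Ccn1, Kdr, Flt1, Nrp1 and Nrp2. TGANTCA occurred before Plaur alone (3.33% of the windows, against 6.75% of all windows), beside TTGCNNAA (6.67% against 9.56%). AGATAA was found before Vegfa alone (3.33% against 9.99%). The longer RBPJ form GTGGGAA was found in 2 windows (6.67% against 5.42%), those of Kdr and Tie1, and overlaps TGGGAA. GAGGAAGT, a PU.1 form, was found before Eng alone (3.33% against 2.44%), and the RUNX letters TGTGGT before Mmp14 alone (3.33% against 14.0%). These matches describe letters and not bound sites.

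Regions of the 36 loci were shared between libraries about as often as those of other loci, and the share of these genes with an end called in all 4 libraries was higher. Of the 319 regions, 121 (37.9%) were called in all 4 libraries, against 38.7% of regions at all protein-coding genes. Another 76 (23.8%) were called in 1 library, against a background of 25.1%. An end of the gene was called in all 4 libraries for 26 of the 36 genes (72.2%), against 53.1% of all genes. Promoter windows were called in all 4 libraries for 12 of the 26 genes with a window, against 50.1% of all genes, and in none for Vegfb, Tek and Mmp14, against 40.9%. Per library, the window was called for 18 genes in Cxcr3-/- monocytes (53.4% of all genes), 20 in WT monocytes (55.7%), 19 in Cxcr3-/- CMP/GMP (56.3%) and 13 in WT CMP/GMP (53.1%).

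Both monocyte libraries and neither CMP/GMP library had an interval in 44 regions (13.8%, against 13.8% of all locus regions), and the opposite was seen in 26 (8.15%, against 6.69%). Regions are called monocyte-only or CMP/GMP-only below where both of those intervals were also among the 69521 best of their library by q. There were 33 monocyte-only regions (10.3%, against 9.76% of all locus regions) and 24 CMP/GMP-only regions (7.52%, against 5.77%). The first group was spread over 18 genes and the second over 15, and 10 genes held both kinds. At a gene end or promoter window lay 7 of the 33 monocyte-only regions (21.2%, against 7.21% at all genes) and 0 of the 24 CMP/GMP-only regions (against 11.9%). Among the 69 regions with a ratio in both genotypes, 4 were more than 2-fold higher in monocytes in both (5.8%, against a background of 7.19%) and 0 were more than 2-fold lower in both (against 2.51%). Scaled by background tag density instead, 18 of the 69 were higher in both (26.1%, against 16.7% of all regions under that scaling) and 0 lower (against 0.641%). The 4 lie at Nrp1, Epas1, Notch2 and Rbpj.

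**Figure D1:**
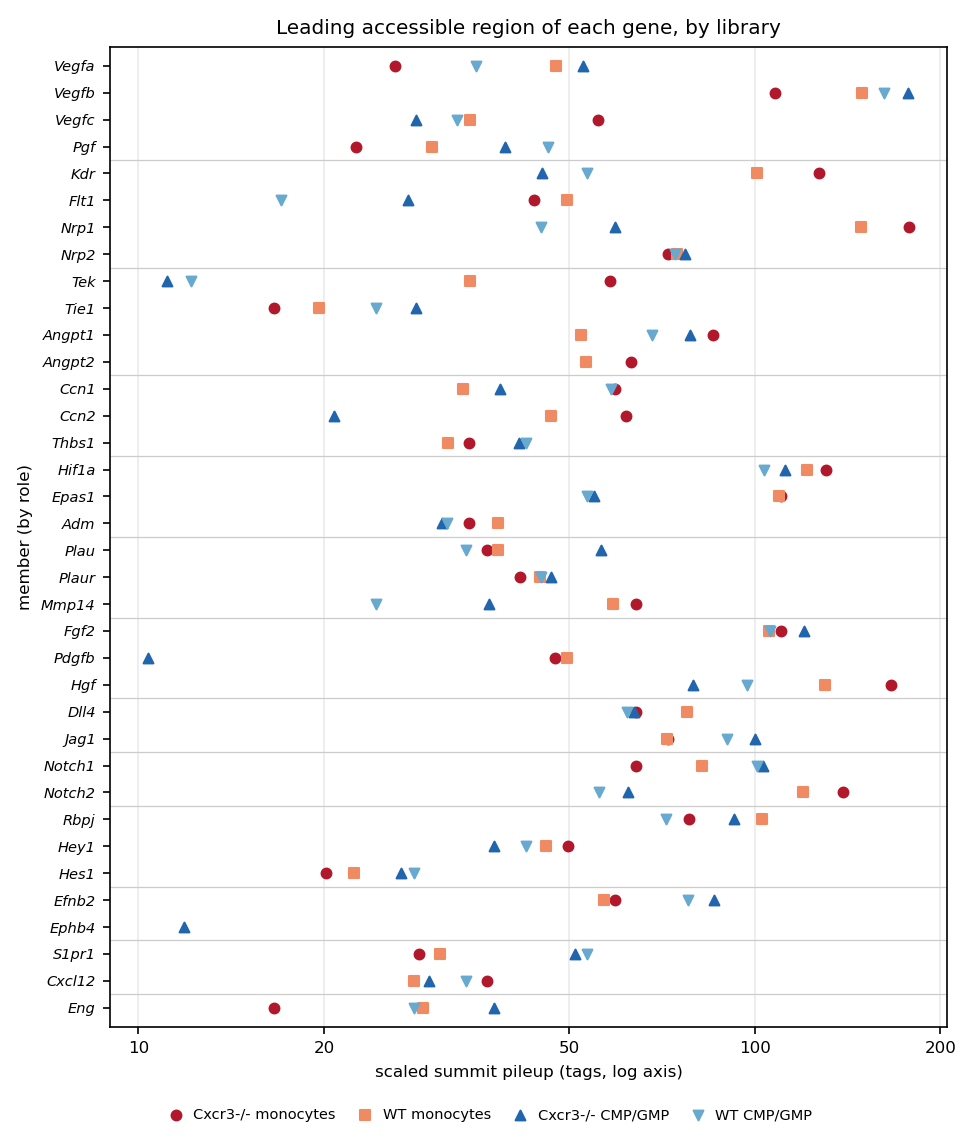
Scaled summit pileup (tags, log axis) of the leading region of each of the 36 genes, ordered by role, with 1 point per library and no point where a library had no interval. The Nrp1 points of both monocyte libraries lie at 178 and 149, above both CMP/GMP points at 59.3 and 45, whereas the 4 Nrp2 points lie between 72.4 and 77.1.

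Taking the VEGF ligands first, none of their 25 regions was monocyte-only and 1 was CMP/GMP-only, against 9.76% and 5.77% of all locus regions. Vegfa encodes the principal endothelial growth factor. Its promoter, at chr17:46032150-46032643, held 22 tags in Cxcr3-/- monocytes, 51 in WT monocytes, 71 in Cxcr3-/- CMP/GMP and 29 in WT CMP/GMP. After scaling, monocytes over CMP/GMP gave -1.01 in the Cxcr3-/- pair (95% counting interval -1.77 to -0.30) and 0.43 in the WT pair (-0.25 to 1.14), so the 2 genotypes differed in sign. Vegfc, a ligand best known for lymphatic vessels, held 47 tags in Cxcr3-/- monocytes, 37 in WT monocytes, 38 in Cxcr3-/- CMP/GMP and 27 in WT CMP/GMP at its promoter, chr8:54076990-54078088. The region also lies in the locus of Gm33153. Its ratio of monocytes over CMP/GMP was 0.99 (0.34 to 1.64) in Cxcr3-/- and 0.07 (-0.68 to 0.85) in WT. Pgf, placental growth factor, was lower in monocytes at its promoter in both pairs, with 19 and 32 tags in Cxcr3-/- and WT monocytes and 53 and 38 tags in Cxcr3-/- and WT CMP/GMP. The WT interval of Pgf included 0 (-0.63, -1.35 to 0.09). Vegfb had its strongest region at chr19:6979563-6980698, which also lies in the loci of Plcb3, Ppp1r14b, Fkbp2 and Dnajc4, and its 91 to 239 tags cannot be assigned to 1 of these genes. The same holds for the Vegfb means below, as all 5 of its regions lie in other loci too.

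The receptor and co-receptor loci held 82 regions, 9 of them monocyte-only and 9 CMP/GMP-only, against 9.76% and 5.77% of all locus regions. Kdr encodes the main signalling receptor for VEGFA. Its leading region lies inside the gene within 1000 bases of its 3′ end, at chr5:75933372-75934071, and held 107 tags in Cxcr3-/- monocytes and 108 in WT monocytes, against 61 in Cxcr3-/- CMP/GMP and 44 in WT CMP/GMP. The ratio of monocytes over CMP/GMP was 1.49 (1.02 to 1.97) in Cxcr3-/- and 0.91 (0.40 to 1.45) in WT. Past the 3′ end, chr5:75923557-75924036 held 51 and 61 tags and chr5:75922734-75923001 held 38 and 54 tags in Cxcr3-/- and WT monocytes, with no interval in either CMP/GMP library. At the mean scaled level of the monocytes, the first of these would have given 79.3 tags in Cxcr3-/- CMP/GMP and 48.3 in WT CMP/GMP. The Kdr promoter itself was weak, with 16 tags in Cxcr3-/- monocytes, 18 in WT monocytes, 16 in Cxcr3-/- CMP/GMP and no interval in WT CMP/GMP.

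Nrp1 encodes a neuropilin that binds VEGFA and semaphorins. Its leading region lay 1775 bases before a start site, at chr8:128356785-128357604, with 150 tags in Cxcr3-/- monocytes and 159 in WT monocytes, against 80 and 37 in Cxcr3-/- and WT CMP/GMP. The ratios were 1.59 (1.18 to 2.0) in Cxcr3-/- and 1.72 (1.20 to 2.28) in WT. The region over the start site followed it, at 47 and 56 tags in Cxcr3-/- and WT monocytes against 39 and 18 in Cxcr3-/- and WT CMP/GMP, with ratios of 0.95 in Cxcr3-/- and 1.26 in WT. The WT CMP/GMP interval of that region did not reach the promoter window. The remainder of the locus was mixed, as 3 of its 30 regions were monocyte-only and 3 CMP/GMP-only, against the same 9.76% and 5.77%. One of the CMP/GMP-only regions, at chr8:128431091-128431436, held 39 and 19 tags in Cxcr3-/- and WT CMP/GMP.

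Nrp2 encodes the second neuropilin, which also binds VEGFC. Its promoter, at chr1:62702940-62703745, had 75 and 84 tags in Cxcr3-/- and WT monocytes, against 56 and 33 in Cxcr3-/- and WT CMP/GMP, with ratios of 1.1 (Cxcr3-/-) and 0.97 (WT). Inside the gene, chr1:62720257-62720535 held 56 and 72 tags in the Cxcr3-/- and WT monocyte libraries and no interval in CMP/GMP, where 90.2 (Cxcr3-/-) and 55.0 (WT) tags would match the monocyte level. Another intragenic region, chr1:62760058-62760487, went the other way with 25 and 19 tags in Cxcr3-/- and WT monocytes against 73 and 46 in Cxcr3-/- and WT CMP/GMP, giving -0.87 in Cxcr3-/- and -1.66 in WT. Both directions were therefore present within 1 gene. Flt1, a VEGF receptor with weak kinase activity, likewise had regions of each kind. Its region at chr5:147589843-147590226 held 37 and 53 tags in Cxcr3-/- and WT monocytes and 37 and 14 in Cxcr3-/- and WT CMP/GMP, while chr5:147659859-147660213 held 13 tags in each monocyte library against 50 and 38 in Cxcr3-/- and WT CMP/GMP.

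**Figure D2:**
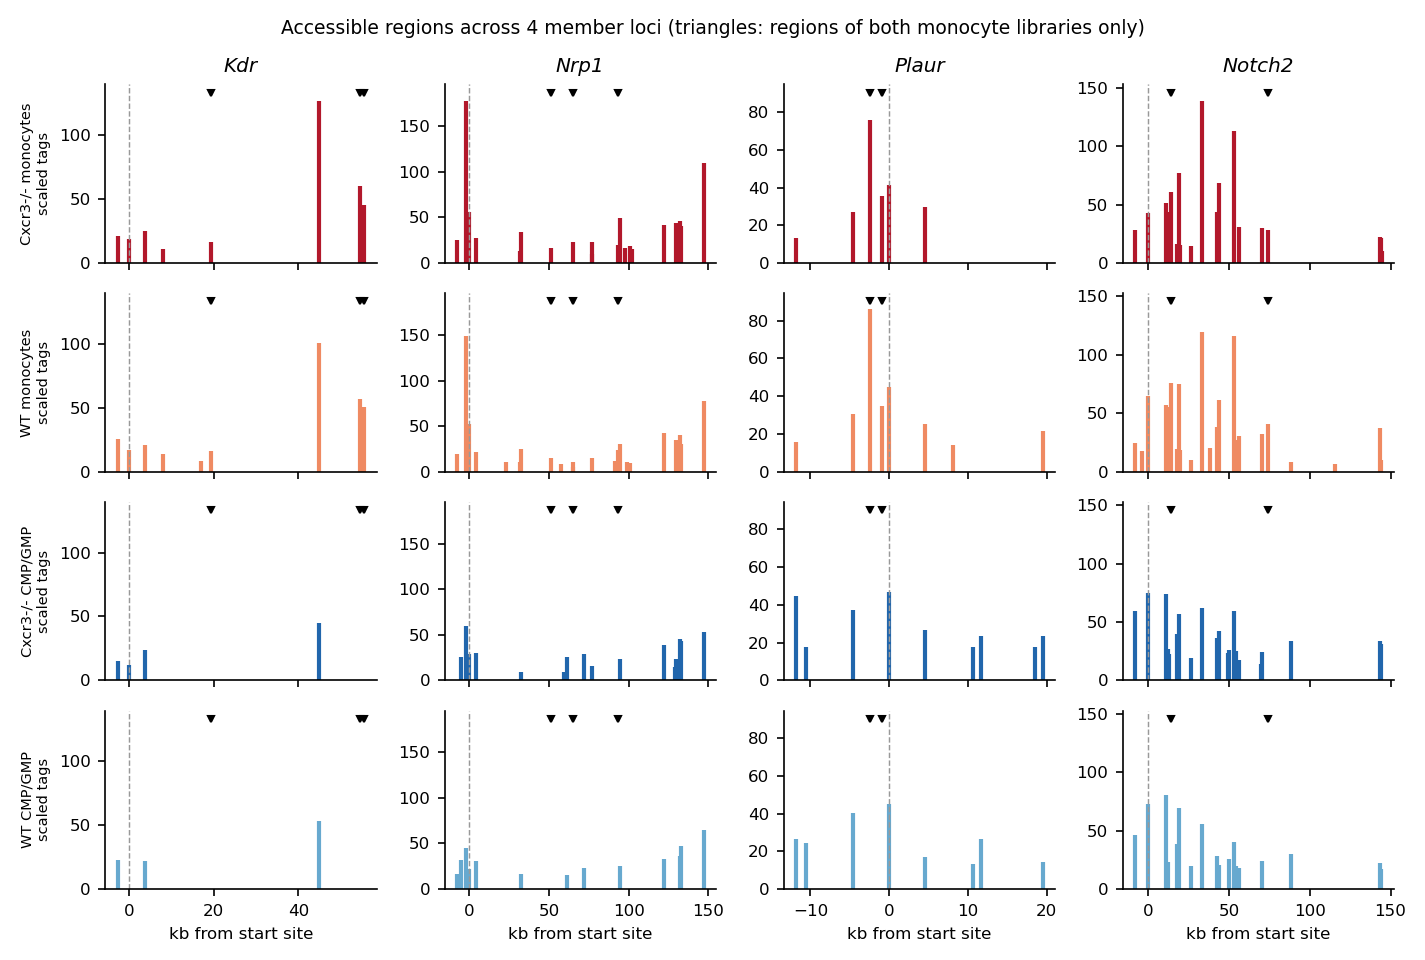
Scaled summit pileup (tags) of every region of Kdr, Nrp1, Plaur and Notch2 against distance from the start site in kb, 1 row per library, with triangles at monocyte-only regions. Kdr carries its tallest bars near its 3′ end, at 127 and 101 scaled tags in the Cxcr3-/- and WT monocyte rows, and the triangles of Plaur sit just before its start site.

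The angiopoietin loci held 34 regions, 22 of them at Angpt1. Tek, the receptor of the angiopoietins, had 2 regions, and the intragenic one at chr4:94768576-94768997 held 49 tags in Cxcr3-/- monocytes and 37 in WT monocytes, against 15 in Cxcr3-/- CMP/GMP and 10 in WT CMP/GMP. Its ratio was 2.39 in Cxcr3-/- (1.53 to 3.33). The WT pair fell under the 30-tag minimum and gave 1.51 (0.47 to 2.68). Angpt1, the activating ligand of TEK, showed 10 regions called in all 4 libraries, and its mean ratio of monocytes over CMP/GMP was 0.00 ± 0.22 in Cxcr3-/- and -0.48 ± 0.25 in WT (mean over its regions ± 95% counting error). Angpt2, a context-dependent antagonist of TEK, lies inside Mcph1, and all 8 of its regions belong to both loci. One of them, chr8:18699082-18699709, held 53 and 57 tags in Cxcr3-/- and WT monocytes alone. Tie1, a receptor related to TEK, had 2 regions, and its promoter was called only in Cxcr3-/- CMP/GMP, at 15 tags.

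Of the matricellular genes, Ccn1 (Cyr61) had 1 strong region, 3469 bases before its start site at chr3:145653224-145653736. It held 50 tags in Cxcr3-/- monocytes, 36 in WT monocytes, 52 in Cxcr3-/- CMP/GMP and 48 in WT CMP/GMP. Its promoter held 16 tags in Cxcr3-/- monocytes and 17 in WT monocytes, with no interval in CMP/GMP and a q too low for the monocyte-only set. Ccn2 (CTGF) had a flank region at chr10:24591836-24592089 with 52 tags in Cxcr3-/- monocytes, 50 in WT monocytes and 28 in Cxcr3-/- CMP/GMP, and no interval in WT CMP/GMP, where 35.4 tags would match the others. Its ratio in Cxcr3-/- was 1.57 (0.88 to 2.29). Thbs1, thrombospondin-1 and an inhibitor of angiogenesis, gave 29, 34, 56 and 35 tags at a gene end in Cxcr3-/- monocytes, WT monocytes, Cxcr3-/- CMP/GMP and WT CMP/GMP, with both cell type intervals including 0.

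Each of the 3 hypoxia genes had regions called in every library. Hif1a, the oxygen-regulated transcription factor subunit, had its promoter called with 110 tags in Cxcr3-/- monocytes, 130 in WT monocytes, 151 in Cxcr3-/- CMP/GMP and 85 in WT CMP/GMP. Scaled, these were 131, 121, 112 and 103, so the promoter was at a similar level in all 4. A second Hif1a region, chr12:73901202-73901464, lies over the annotated 5′ end of the gene, 6527 bases before the start site of that promoter. It held 38 and 73 tags in Cxcr3-/- and WT monocytes and 32 and 21 in Cxcr3-/- and WT CMP/GMP, with ratios of 0.93 and 1.42 for the Cxcr3-/- and WT pairs. Epas1, which encodes HIF-2α, was higher in monocytes at a gene end, chr17:86753147-86753821. It held 93 and 117 tags in Cxcr3-/- and WT monocytes against 74 and 44 in Cxcr3-/- and WT CMP/GMP, with ratios of 1.01 (0.55 to 1.47) in Cxcr3-/- and 1.03 (0.52 to 1.56) in WT. Adm, adrenomedullin and a HIF target, had 29, 41, 42 and 26 tags within 1000 bases of its 3′ end in Cxcr3-/- monocytes, WT monocytes, Cxcr3-/- CMP/GMP and WT CMP/GMP, and both intervals included 0. The Adm promoter was called in WT monocytes alone, at 18 tags.

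Among the pericellular proteases, Plaur, the urokinase receptor, had a promoter at a similar level in all 4 libraries beside a monocyte-only region. The promoter held 35 tags in Cxcr3-/- monocytes, 48 in WT monocytes, 63 in Cxcr3-/- CMP/GMP and 37 in WT CMP/GMP, or 41.5, 44.8, 46.7 and 45 after scaling. The region 2485 bases before the start site, chr7:24459900-24460145, held 64 and 92 tags in Cxcr3-/- and WT monocytes and no interval in CMP/GMP, where 109 (Cxcr3-/-) and 66.6 (WT) tags would match the monocyte level. A second, 960 bases before that start site but inside the annotated gene, held 30 and 37 tags in Cxcr3-/- and WT monocytes with the same pattern. Another 3 Plaur regions were CMP/GMP-only. Plau, urokinase itself, had a flank region at chr14:20834190-20834425 that was monocyte-only, at 17 tags in Cxcr3-/- monocytes and 43 in WT monocytes. Mmp14, a membrane-anchored collagenase, was higher in monocytes at chr14:54426251-54426527, with 54 and 63 tags in Cxcr3-/- and WT monocytes against 50 and 20 in Cxcr3-/- and WT CMP/GMP. That region also lies in the loci of Slc7a7 and Mrpl52. Inside the gene, chr14:54433498-54433878 gave -0.25 in Cxcr3-/- and -0.55 in WT, with both intervals including 0. Over its regions Mmp14 averaged -0.12 ± 0.32 in Cxcr3-/- and 0.52 ± 0.41 in WT, so the locus was mixed.

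Of the growth factors, Pdgfb, which recruits pericytes, was the locus that differed most in its number of intervals. It held 6 in Cxcr3-/- monocytes and 6 in WT monocytes, against 2 in Cxcr3-/- CMP/GMP and 0 in WT CMP/GMP. Its gene end at chr15:80024420-80024867 held 21 and 28 tags in Cxcr3-/- and WT monocytes alone. Hgf, hepatocyte growth factor, had a region 701 bases before its start site with 140 and 139 tags in Cxcr3-/- and WT monocytes against 107 and 80 in Cxcr3-/- and WT CMP/GMP, with ratios of 1.07 and 0.42 for the Cxcr3-/- and WT pairs. Fgf2, a heparin-binding growth factor, held at most 12 tags in any library at its promoter, and its strongest region, with 87 to 162 tags, lies 71213 bases away in the loci of Nudt6 and Spata5.

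The Notch ligands Dll4 and Jag1 held 10 regions, of which 2 were monocyte-only and 0 CMP/GMP-only, against 9.76% and 5.77% of all locus regions. Dll4, the tip-cell ligand of sprouting vessels, held 54 and 83 tags in Cxcr3-/- and WT monocytes against 86 and 51 in Cxcr3-/- and WT CMP/GMP at its leading region, with ratios of 0.01 and 0.32 in the Cxcr3-/- and WT pairs and both intervals including 0. The Jag1 region chr2:137116698-137117669 overlaps its promoter window, with its summit 968 bases before the start site. It held 73 and 77 tags in Cxcr3-/- and WT monocytes and 88 and 52 in Cxcr3-/- and WT CMP/GMP. Its ratios were 0.41 in Cxcr3-/- and 0.19 in WT, with both intervals including 0. The intervals that reached the promoter window held 70, 77, 88 and 39 tags in the same order. The leading Jag1 region, chr2:137114231-137115066, held 61 and 77 tags in Cxcr3-/- and WT monocytes and 135 and 74 in Cxcr3-/- and WT CMP/GMP. Its ratios went the other way, at -0.47 (-0.93 to -0.02) in Cxcr3-/- and -0.32 (-0.80 to 0.16) in WT. The monocyte-only regions lay within 1000 bases of the 3′ end of each gene, with 19 and 24 tags at Dll4 and 28 and 31 at Jag1 in Cxcr3-/- and WT monocytes. The Jag1 one also lies in the locus of Slx4ip.

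The receptors differed from each other. Notch2 had 28 regions, 15 of them called in all 4 libraries. Its region at chr3:98046147-98046779, 33027 bases into the gene, held 117 and 128 tags in Cxcr3-/- and WT monocytes against 84 and 46 in Cxcr3-/- and WT CMP/GMP, with ratios of 1.16 (0.74 to 1.58) and 1.10 (0.60 to 1.61) in the Cxcr3-/- and WT pairs. Another, chr3:98027449-98027722, held 51 and 81 tags in Cxcr3-/- and WT monocytes with no interval in CMP/GMP, where 91.9 (Cxcr3-/-) and 56.0 (WT) tags would match. In the opposite direction, chr3:98005317-98005839, 8030 bases before the start site, held 24 and 26 tags in Cxcr3-/- and WT monocytes against 80 and 38 in Cxcr3-/- and WT CMP/GMP, with ratios of -1.06 in Cxcr3-/- and -0.93 in WT. Notch1 had 11 regions, and none passed 2-fold between cell types. Its leading region held 54 and 88 tags in Cxcr3-/- and WT monocytes against 139 and 83 in Cxcr3-/- and WT CMP/GMP, and a flank region at chr2:26513226-26513749, 9600 bases before the start site, held 70 and 34 tags in Cxcr3-/- and WT CMP/GMP with no interval in monocytes. It was the strongest CMP/GMP-only region of the 24, and 39.3 tags in Cxcr3-/- monocytes and 49.9 in WT monocytes would match its level.

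In the nucleus, Rbpj, the DNA-binding partner of all Notch receptors, had an accessible promoter with 66 and 110 tags in Cxcr3-/- and WT monocytes and 125 and 59 in Cxcr3-/- and WT CMP/GMP. Past its 3′ end, chr5:53662301-53662956 held 51 and 57 tags in Cxcr3-/- and WT monocytes against 38 and 16 in Cxcr3-/- and WT CMP/GMP, with ratios of 1.10 (0.47 to 1.75) in Cxcr3-/- and 1.45 (0.63 to 2.35) in WT. Hey1, a repressor induced by Notch, had 2 regions, and the one at a gene end held 40 and 57 tags in Cxcr3-/- and WT monocytes against 39 and 23 in Cxcr3-/- and WT CMP/GMP, with ratios of 0.72 in Cxcr3-/- and 0.93 in WT. The other, its leading region, held 42 and 49 tags in Cxcr3-/- and WT monocytes and 51 and 35 in Cxcr3-/- and WT CMP/GMP. Its ratios were 0.40 in Cxcr3-/- and 0.10 in WT, with both intervals including 0. Both Hey1 regions also lie in the locus of a neighbouring predicted gene. Hes1, another such repressor, had 8 weak regions, none with enough tags for a ratio in any pair, and its leading region held 17 and 24 tags in monocytes and 36 and 23 in CMP/GMP (Cxcr3-/- and WT).

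The remaining genes have roles in vessel identity and homing. Efnb2, the arterial ephrin, whose promoter also lies in the locus of Arglu1, held 50 and 61 promoter tags in Cxcr3-/- and WT monocytes against 116 and 64 in Cxcr3-/- and WT CMP/GMP, with ratios of -0.54 (-1.04 to -0.05) in Cxcr3-/- and -0.45 (-0.98 to 0.08) in WT. Its receptor gene Ephb4, a venous marker, had 1 region in all, over its start site in Cxcr3-/- CMP/GMP with 16 tags, the fewest of the 36. S1pr1, a sphingosine 1-phosphate receptor of cell egress, held 52 and 54 tags at a gene end in Cxcr3-/- and WT monocytes against 33 and 21 in Cxcr3-/- and WT CMP/GMP, with ratios of 1.33 in Cxcr3-/- and 0.98 in WT. A flank region of the same gene, chr3:115716099-115716539, was lower in monocytes, at -0.85 in Cxcr3-/- and -0.80 in WT, so neighbouring regions went opposite ways in both genotypes. The start site of Cxcl12, the marrow-homing chemokine, held 21 and 18 tags in Cxcr3-/- and WT monocytes alone. The leading Cxcl12 region, 1498 bases before the start site, was called in all 4 libraries. That region held 31 and 30 tags in Cxcr3-/- and WT monocytes and 40 and 28 in Cxcr3-/- and WT CMP/GMP. Eng, endoglin, a TGF-beta co-receptor of vessels, held 15, 16 and 19 promoter tags in Cxcr3-/- monocytes, WT monocytes and Cxcr3-/- CMP/GMP, and no interval in WT CMP/GMP. The leading Eng region, chr2:32689492-32689683, also lies in the locus of Fpgs. It held 14 and 31 tags in Cxcr3-/- and WT monocytes and 51 and 23 in Cxcr3-/- and WT CMP/GMP.

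As a mean over the regions of each gene, 27 genes had a ratio of monocytes over CMP/GMP in both genotypes. Kdr, Nrp1, Hif1a, Epas1 and Hey1 lay above 0 by more than the counting error in both (5 of 27, 18.5%, against 12.3% of all genes), and 0 of 27 lay below by more than the error in both (against 8.36%). Kdr averaged 1.49 ± 0.45 in Cxcr3-/- and 0.91 ± 0.51 in WT, and Epas1 1.01 ± 0.44 in Cxcr3-/- and 1.03 ± 0.50 in WT. Nrp1 averaged 0.61 ± 0.20 in Cxcr3-/- and 0.52 ± 0.26 in WT. Hif1a averaged 0.57 ± 0.38 in Cxcr3-/- and 0.82 ± 0.40 in WT, and Hey1 0.56 ± 0.43 in Cxcr3-/- and 0.52 ± 0.47 in WT. Several of these rest on few regions, 1 each at Kdr and Epas1 and 2 each at Hif1a and Hey1. The median over genes was -0.03 in Cxcr3-/- (31 genes, against -0.08 over all genes) and 0.11 in WT (27 genes, against 0.10), so the set as a whole lay close to all genes. The 2 pairs share no library. In Cxcr3-/- by itself, 12 of 31 gene means lay above 0 by more than the error (38.7%, against 20.1%). Of these, the means of Vegfc, Kdr, Tek, Ccn1, Ccn2 and Epas1 rest on 1 region each. Vegfa, Vegfb, Pgf, Plaur and Eng lay below (5 of 31, 16.1%, against 24.3%). Those of Pgf and Eng rest on 1 region each, and that of Eng also lies in the locus of Fpgs. All 5 Vegfb regions also lie in the loci of other genes. The 12 genes above 0 had a median of 2 to 11 protein-coding genes in the 1 Mb around their regions. For the 5 below, this median was 19 to 41. The part of gene density in the cell type ratios was not tested. In WT, 8 of 27 lay above (29.6%, against 24.9%), and Angpt1 and Ccn1 below (2 of 27, 7.41%, against 14.1%). The Ccn1 mean rests on 1 region. Here the median number of surrounding genes was 2 to 29 for the 8 above, 1.5 for Angpt1 and 10.5 for Ccn1. Among regions of the Cxcr3-/- pair, 15 of 91 exceeded 2-fold on the monocyte side (16.5%, against 11.3%) and 6 on the CMP/GMP side (6.59%, against 6.93%). In the WT pair, 11 of 70 did so on the monocyte side (15.7%, against 12%) and 1 on the CMP/GMP side (1.43%, against 4.58%). The background implied by the deposited statistics was 97.2 tags per 10 kb in Cxcr3-/- monocytes, 95.6 in WT monocytes, 194 in Cxcr3-/- CMP/GMP and 135 in WT CMP/GMP. Each is the most frequent recovered local background of a list over its shortest interval, 111, 100, 125 and 118 bases in that order. That this length is the window of the background was assumed, and all scaling by background density rests on it. Scaling by background density would add 0.32 to every ratio in the Cxcr3-/- pair and 0.87 in the WT pair, all genes included, and would turn 10 gene means from below to above 0 in each pair, among them Angpt1 and Ccn1 in WT.

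**Figure D3:**
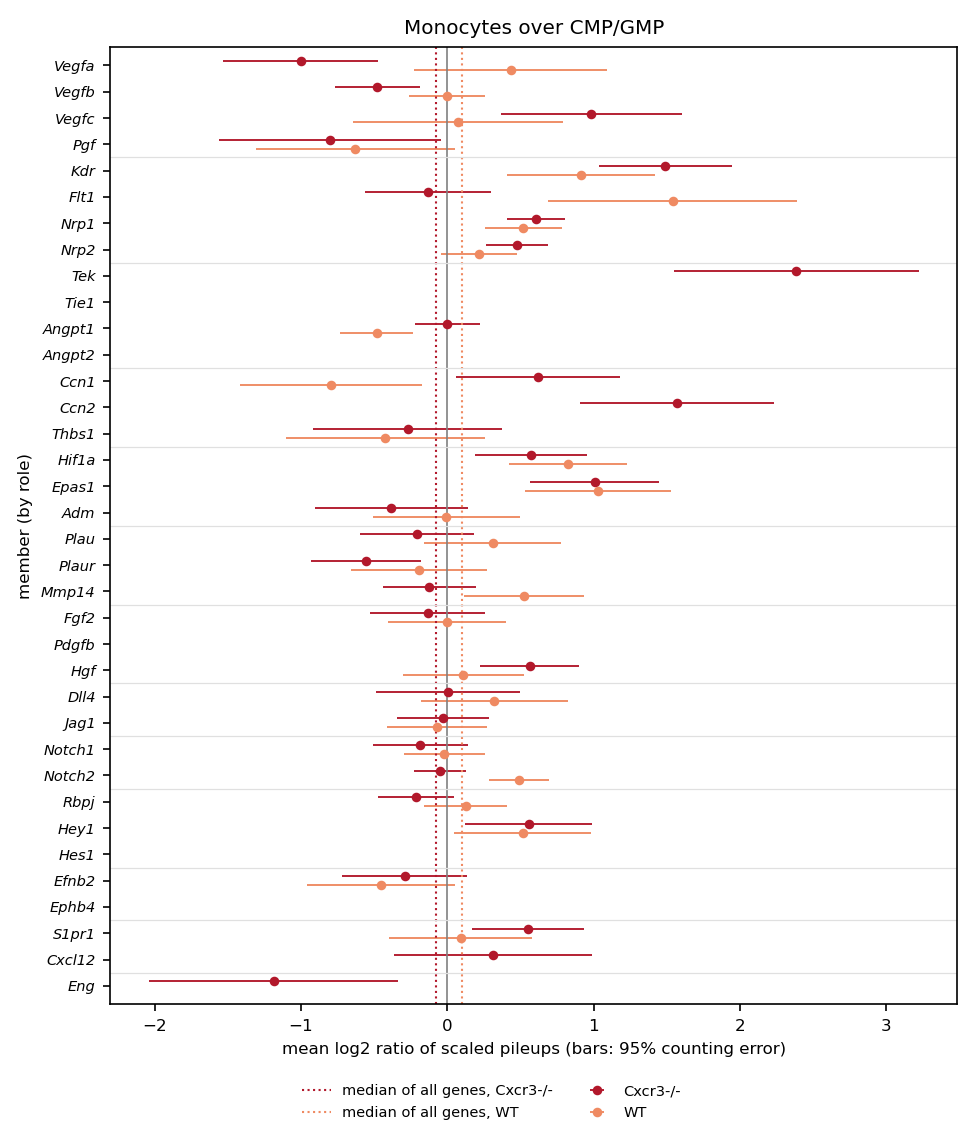
Mean log2 ratio of scaled pileups, monocytes over CMP/GMP, for each gene in Cxcr3-/- and in WT, with bars of 95% counting error and dotted lines at the median of all genes (-0.08 in Cxcr3-/-, 0.10 in WT). Kdr and Epas1 stand right of 0 in both genotypes, while Vegfa stands at -1.0 in Cxcr3-/- and 0.43 in WT.

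Between the Cxcr3-/- and WT libraries, 1 region of these loci passed 2-fold. In monocytes, 0 of 82 regions exceeded 2-fold towards Cxcr3-/- (against 0.222% of all regions) and 0 towards WT (against 0.444%). In CMP/GMP, 1 of 82 regions (1.22%) exceeded 2-fold towards Cxcr3-/- (against 0.102%) and 0 exceeded it towards WT (against 0.131%). That region, chr3:98056929-98057461 inside Notch2, held 57 tags in Cxcr3-/- CMP/GMP and 17 in WT CMP/GMP, a ratio of 1.03 (0.23 to 1.91). It held 58 and 66 tags in Cxcr3-/- and WT monocytes. These are tags before scaling. After scaling, both CMP/GMP libraries lay below both monocyte libraries, with WT CMP/GMP the lowest. Counting intervals left out 0 in 8 monocyte regions above 0 (9.76%, against 5.67% of all regions) and 5 below 0 (6.1%, against 4.77%), and in CMP/GMP in 4 above (4.88%, against 2.63%) and 2 below (2.44%, against 1.78%).

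In monocytes, 6 of 31 gene means exceeded 0 by more than the counting error, those of Vegfc, Nrp1, Tek, Angpt1, Ccn1 and Hgf (19.4%, against 8.74% of all genes). Vegfa, Vegfb, Plau and Notch1 lay below 0 by more than the error (4 of 31, 12.9%, against 13.0%). The values of Vegfc, Tek, Ccn1 and Vegfa rest on 1 region each, and that of Vegfc also lies in the locus of Gm33153. All 5 Vegfb regions also lie in the loci of other genes. Angpt1 averaged 0.46 ± 0.25 over 5 regions, the leading one of which held 72 tags in Cxcr3-/- monocytes and 56 in WT monocytes. Tek gave 0.75 ± 0.62 from 1 region with 49 and 37 tags in Cxcr3-/- and WT monocytes. Plau averaged -0.51 ± 0.36 over 4 regions, and its flanks at chr14:20829559-20830358 and chr14:20834190-20834425 held 24 and 17 tags in Cxcr3-/- monocytes against 57 and 43 in WT monocytes. Notch1 averaged -0.41 ± 0.32 over 4 regions and Hgf 0.51 ± 0.37 over 2. The Vegfa promoter, with 22 tags in Cxcr3-/- monocytes and 51 in WT monocytes, had an interval of -1.66 to -0.12, and in CMP/GMP its ratio was 0.58 (-0.06 to 1.25). In CMP/GMP, Mmp14 at 0.50 ± 0.35 and Notch2 at 0.27 ± 0.19 lay above 0 (2 of 29, 6.9%, against 5.18%), and Ccn1 at -0.60 ± 0.57 below (1 of 29, 3.45%, against 2.16%). The Ccn1 value rests on 1 region. Of the 4 Mmp14 regions averaged, chr14:54426251-54426527, chr14:54426651-54427189 and chr14:54433498-54433878 also lie in the locus of Mrpl52.

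**Figure D4:**
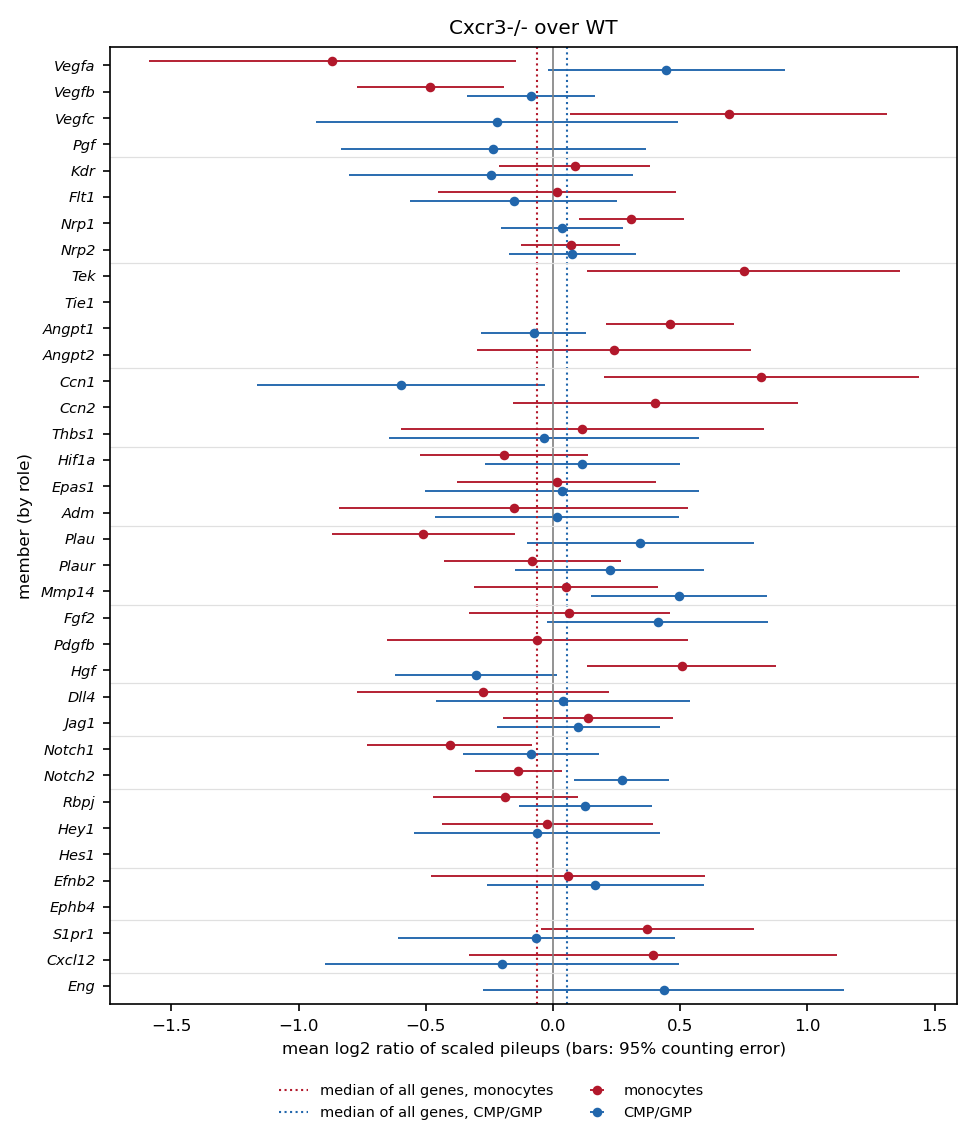
Mean log2 ratio of scaled pileups, Cxcr3-/- over WT, for each gene in monocytes and in CMP/GMP, with bars of 95% counting error and dotted lines at the median of all genes (-0.06 in monocytes, 0.06 in CMP/GMP). Ccn1 lies at 0.82 in monocytes and -0.60 in CMP/GMP, and most bars cross 0.

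Gene density moved with the monocyte ratio. All regions were split into 10 bins of equal size by how many protein-coding genes lay within the surrounding 1 Mb. The median ratio of Cxcr3-/- over WT monocytes was 0.24 in the bin with the fewest genes and -0.23 in the bin with the most, and in CMP/GMP these medians were -0.07 and 0.11. Of the 6 genes above 0 in monocytes, Angpt1, Nrp1, Hgf, Vegfc, Tek and Ccn1 had a median of 1.5, 2, 3, 6, 9 and 10.5 genes around their regions. Of the 4 below 0, Vegfa, Vegfb, Plau and Notch1 had 30, 31, 21 and 31. The median over the 36 genes was 0.06 in monocytes (31 genes, against -0.06 over all genes) and 0.04 in CMP/GMP (29 genes, against 0.06). After subtracting the median of the same density bin it was -0.02 in monocytes and -0.01 in CMP/GMP. The endothelial markers, which share some functions with these genes, had a median of 0.28 in monocytes over the 7 of 10 with a ratio, and their part in the result was not tested. Scaling by background density would lower every monocyte ratio by a shift of -0.37, turning 11 gene means from above to below 0, Nrp1 among them, and would raise every CMP/GMP ratio by 0.19, turning 7.

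**Figure D5:**
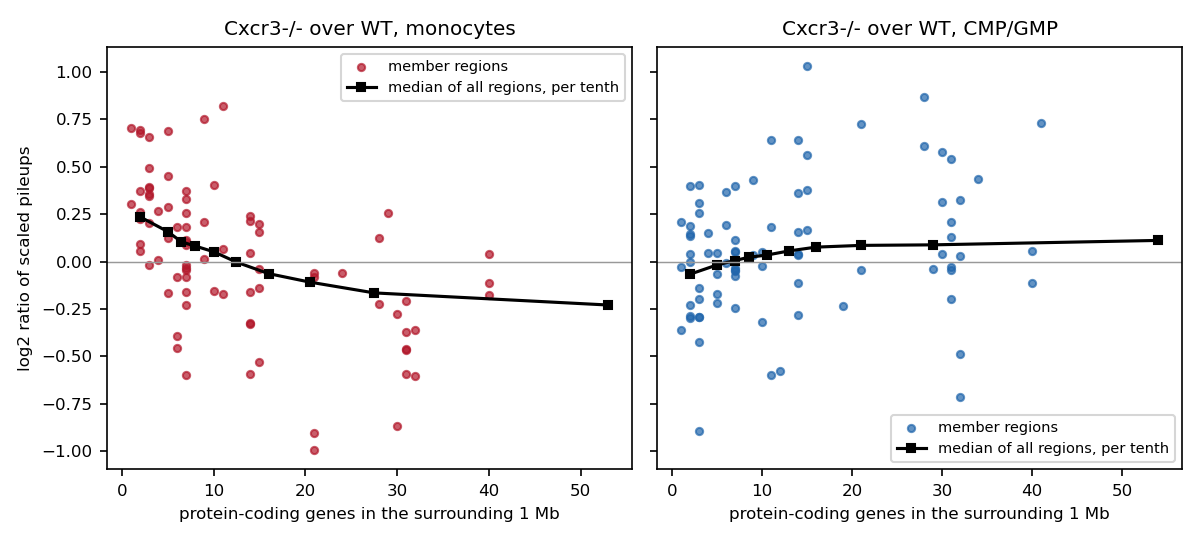
Log2 ratio of scaled pileups, Cxcr3-/- over WT, against protein-coding genes per surrounding 1 Mb, for the regions of the 36 genes (points) and the median of all regions in each of 10 density bins (squares), in monocytes and in CMP/GMP. The monocyte medians are 0.24 in the sparsest bin and -0.23 in the densest, and the CMP/GMP medians are -0.07 and 0.11.

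At 33 further Notch genes, 34 of 338 regions (10.1%) were monocyte-only and 20 (5.92%) CMP/GMP-only, against 9.76% and 5.77% of all locus regions. In both genotypes, 7 of 74 regions (9.46%, against 7.19%) were more than 2-fold higher in monocytes and 1 (1.35%, against 2.51%) lower. Lfng, a glycosyltransferase that modifies Notch, averaged 0.80 ± 0.27 in Cxcr3-/- and 1.05 ± 0.30 in WT. At 45 further angiogenesis genes, 35 of 388 regions (9.02%) were monocyte-only and 22 (5.67%) CMP/GMP-only, and 8 of 74 (10.8%) were more than 2-fold higher and 4 (5.41%) lower in both genotypes. Met, the receptor of HGF, averaged -1.13 ± 0.39 in Cxcr3-/- and -1.14 ± 0.40 in WT, and Itgav, an integrin subunit, 1.06 ± 0.31 in Cxcr3-/- and 1.04 ± 0.30 in WT. These genes were picked after their values were seen.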

How the data were processed

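Omni-ATAC-seq peak lists of 4 libraries, 1 per group, were analysed as deposited. Per the submitters' processing notes, reads were handled with Trim Galore, Bowtie2 and SAMtools on mm10. No source used here names the peak caller. Each interval carries a deposited score, which served no purpose here. It also carries the authors' fold, a ratio of summit pileup over local background. Its −log10 p, its −log10 q and the position of its summit are likewise deposited values of that interval, and intervals were ranked by q within a list. The whole-number pileup was recovered from the fold and −log10 p, to a tolerance of 0.001, under a Poisson background with 1 added tag. It was not recovered for 0, 1, 2 and 0 intervals of Cxcr3-/- monocytes, WT monocytes, Cxcr3-/- CMP/GMP and WT CMP/GMP.

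Intervals sharing a base were merged. Each pileup was divided by a library factor (0.843, 1.07, 1.35 and 0.822 in the same order). The factor was the median, over 44591 regions called in all 4, of the pileup over the geometric mean of the 4 libraries. The factors were then centred by their own geometric mean. Counting intervals of regions are exact 95% Clopper-Pearson bounds. The ± errors of gene means are a 95% normal approximation from the tag counts of the regions averaged. For cell-type-only calls, present meant among the 69521 best intervals of a library by q and absent meant no deposited interval. Gene positions and promoter sequences came from RefSeq tables, so exons were not annotated. Python 3.11.15, pandas 2.3.3, numpy 2.4.6 and scipy 1.17.1 were used, and the steps were tested on simulated data.

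The genes and lists were chosen with earlier results of these data known. Regions named with tags are the leading regions of most genes, those more than 2-fold apart between genotypes or, in both genotypes, between cell types, and some cell-type-only regions with 30 or more tags. Others were picked after their values were seen. The leading regions of Nrp2, Tie1, Plau, Pdgfb and S1pr1 are not given with tags. The planned printing of sequences around summits was replaced by promoter sequences, because no genome was used here.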

Additional observations from a re-analysis of the deposited data

Results flagged for a closer look

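Of 55 regions with a Cxcr3-/- over WT ratio in both cell types, 28 had ratios of opposite sign, and in 1 of them both counting intervals left out 0. This was the Ccn1 region at chr3:145653224-145653736. Its log2 ratio was 0.82 in monocytes (0.17 to 1.48), with 50 tags in Cxcr3-/- monocytes and 36 in WT monocytes, and -0.60 in CMP/GMP (-1.19 to -0.00), with 52 tags in Cxcr3-/- CMP/GMP and 48 in WT CMP/GMP. The difference between the cell types was not tested, as each group is 1 library, and the CMP/GMP bound lies next to 0.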

How the results depend on the processing

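Of 72 alternatives, 52 left a count within 1.5 times, or a median within the counting spread, of its value as reported, and 20 moved it. That spread was the median ± error of a gene mean, 0.40 in monocytes and 0.44 in CMP/GMP. It is wide for a median over genes, so the tally says little about the medians. The monocyte genotype median was counted as unmoved when it went from 0.06 to -0.31. Scaling by background density gave 18 regions more than 2-fold higher in monocytes in both genotypes (26.1%, against 16.7% of all regions), 2 higher in Cxcr3-/- CMP/GMP (2.44%, against 0.568%) and 3 lower in Cxcr3-/- monocytes (3.66%, against 4.43%), and the monocyte genotype median became -0.31 (-0.43 over all genes). A minimum of 20 tags gave 1 region lower in monocytes in both genotypes, 2 higher and 1 lower in Cxcr3-/- CMP/GMP and 1 higher in Cxcr3-/- monocytes. A minimum of 60 tags, or subtracting the density median, left 0 regions higher in Cxcr3-/- CMP/GMP. Gene bodies alone gave 1 region higher in monocytes in both genotypes, 20 monocyte-only regions and 129 intervals in WT CMP/GMP. With 50 kb flanks there were 10 higher and 1 lower in both genotypes, 52 monocyte-only and 41 CMP/GMP-only regions, and 401, 481, 410 and 362 intervals in Cxcr3-/- monocytes, WT monocytes, Cxcr3-/- CMP/GMP and WT CMP/GMP. No paired analysis was possible because each group is 1 library with no replicate number. Leaving out a replicate was likewise not possible. Regions with few tags have wide intervals, and no interval covers variation between cultures.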
